A study of Mus musculus with 18 samples.

Results

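The genes described here are 10 members of the NRF2 antioxidant response, chosen by name and looked up by Ensembl identifier: *Nfe2l2*, *Keap1*, *Nqo1*, *Hmox1*, *Gclc*, *Gclm*, *Txnrd1*, *Srxn1*, *Slc7a11* and *Gpx4*. All 10 were found among the 51912 genes of the table, and all 10 were among the 15710 that passed the filter on low counts. They were measured by RNA-seq in primary mouse embryonic fibroblasts (MEFs) at passage 1 of 6 genotypes, with 3 libraries each. *Pole4* was wild type (*Pole4*+/+) or null (*Pole4*-/-), and within each of these *Trp53* was wild type (*Trp53*+/+), heterozygous (*Trp53*+/-) or null (*Trp53*-/-). POLE4 is an accessory subunit of the leading-strand DNA polymerase epsilon, and TRP53 is the mouse p53 tumor suppressor. All cultures were kept in 5% oxygen and 15% fetal bovine serum, a shared condition of every genotype, and no oxidant or NRF2 activator was applied. The MEFs came from embryos of double heterozygous C57BL/6 parents at midgestation, after the head and some of the organs had been taken out, so they are mixed embryonic cultures and not a clone. The sources do not say whether the 3 libraries of a genotype came from separate embryos, so the p-values measure only the spread between these libraries.

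NRF2, the product of *Nfe2l2*, is a transcription factor that KEAP1 holds in the cytoplasm and hands to a cullin ubiquitin ligase for degradation. Oxidants and electrophiles modify cysteines of KEAP1, NRF2 then accumulates, and with a small MAF partner it binds antioxidant response elements and raises genes for glutathione synthesis, thioredoxin reduction, quinone detoxification and heme breakdown. Because NRF2 is controlled mainly as a protein, the level of its mRNA does not report its activity, and the transcripts of its targets are the usual readout.

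The core of the antioxidant response element was searched for as TGACNNNGC on both strands of RefSeq promoter windows (GRCm38.p6, 250 bases before to 50 after a start site). Windows were at hand for 8 of the 10 genes, and 4 of these genes, *Nfe2l2*, *Gclm*, *Txnrd1* and *Srxn1*, held a match. *Hmox1* and *Gclc* had no window. Counted by window, 4 of 13 (30.8%) held the core, beside 4071 of 32851 windows of the same length over all genes (12.4%). Among the genes that were tested for expression, 1776 of 10689 with a window held it (16.6%). The 4 matches are shown in 30 bases each, 5′ to 3′ on the strand of the gene, since 3 of the 4 genes changed between genotypes. The capitals mark the core, which reads TGACNNNGC in *Nfe2l2* and its reverse complement in the other genes. They lie at chr2:75704884-75704913 for *Nfe2l2* (minus strand), chr3:122245413-122245442 for *Gclm*, chr10:82859104-82859133 for *Txnrd1* and chr2:152105542-152105571 for *Srxn1*, the last 3 on the plus strand.
Nfe2l2: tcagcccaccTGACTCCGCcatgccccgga
Gclm: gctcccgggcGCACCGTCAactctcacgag
Txnrd1: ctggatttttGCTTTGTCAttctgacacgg
Srxn1: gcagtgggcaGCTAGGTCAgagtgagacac

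Counted from the start site, the core began at base -240 in *Nfe2l2*, at -134 in *Gclm*, at -92 in *Txnrd1* and at 29 in *Srxn1*. *Txnrd1* has 3 start sites in the RefSeq table and only the window at chr10:82858956-82859255 held the core. The 250 bases before the start site are given in full for *Gclm* (chr3:122245307-122245556) and for that start of *Txnrd1* (chr10:82858956-82859205), the genes with the largest increases among the 10 after loss of *Trp53* in *Pole4*-/- cells. A match to these letters is a description of the sequence and not evidence of binding.
Gclm: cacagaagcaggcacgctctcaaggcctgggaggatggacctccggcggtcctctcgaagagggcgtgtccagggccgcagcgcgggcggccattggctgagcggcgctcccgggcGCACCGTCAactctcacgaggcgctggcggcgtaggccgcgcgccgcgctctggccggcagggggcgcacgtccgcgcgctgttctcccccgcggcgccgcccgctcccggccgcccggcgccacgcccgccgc
Txnrd1: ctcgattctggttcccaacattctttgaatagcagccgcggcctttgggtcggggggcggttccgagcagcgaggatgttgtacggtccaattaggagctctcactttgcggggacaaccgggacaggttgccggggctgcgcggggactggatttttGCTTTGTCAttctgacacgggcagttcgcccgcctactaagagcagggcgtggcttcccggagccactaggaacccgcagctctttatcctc

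Library totals ran from 9535971 to 35319918 counts (median 22781543), and ribosomal RNA genes took 0.968% to 42.5% of them. The *Trp53* row fell to 8.65 to 12.1 CPM (counts divided by library size and brought to the same fixed total in every library, with sizes scaled by TMM, which corrects totals for composition) in the *Trp53*-/- libraries, against 64.2 to 96.1 CPM in *Trp53*+/+ libraries. The *Pole4* row read 9.26 to 11.99 CPM in *Pole4*-/- and 14.2 to 26.4 CPM in *Pole4*+/+ libraries, so part of that transcript was still counted. All 10 fibroblast markers (*Col1a1*, *Thy1*, *Pdgfra* and others) were at 1 CPM or more in every genotype, and erythroid and hepatocyte markers summed to at most 0.889 and 0.937 CPM. The summed fibroblast markers were lower in *Pole4*-/- *Trp53*-/- (13720 to 16520 CPM) than in *Pole4*-/- *Trp53*+/+ libraries (24890 to 30960 CPM), and the skeletal muscle markers were also lower (25.5 to 49.2 against 75.6 to 102 CPM). The neuron markers (110 to 132 against 64.5 to 80.6 CPM) and the epithelium markers (4.398 to 20.2 against 2.02 to 2.67 CPM) were higher, without overlap. In every genotype, only 2 of the 5 neuron markers were at 1 CPM or more. For epithelium and for skeletal muscle it was 1 or 2 of 5. These sums therefore rest on few genes and are not counts of cells. By *Xist* and *Ddx3y*, 7 of the 18 libraries were male. The *Pole4*+/+ *Trp53*+/- libraries were all male and the *Pole4*+/+ *Trp53*+/+ and *Pole4*+/+ *Trp53*-/- libraries all female, with the other genotypes mixed. In such bulk libraries, fewer cells of a type and less RNA per cell cannot be told apart.

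The 10 genes were all transcribed in every library, at 45 counts or more. Per kilobase of exon, the mean level over the 18 libraries was highest for *Gpx4* (56.8 CPM per kb), the glutathione peroxidase that reduces lipid hydroperoxides. It was followed by *Hmox1* (37.2), *Txnrd1* (25.4), *Nfe2l2* (20.5), *Srxn1* (9.06), *Keap1* (7.01), *Gclc* (6.35), *Gclm* (4.93), *Nqo1* (3.85) and *Slc7a11* (1.36 CPM per kb). Of the neighbours in this order, *Nfe2l2* and *Srxn1*, and *Nqo1* and *Slc7a11*, had ranges over the libraries that did not overlap. *Gpx4* and *Hmox1* overlapped in range, although *Gpx4* was the higher of the pair in all 18 libraries, while *Keap1* exceeded *Gclc* in only 11 of 18. The range between genotypes was small. The highest genotype mean was between 1.2 and 2.14 times the lowest, with *Gpx4* and *Keap1* at the narrow end and *Slc7a11* at the wide end. For 5 of the 10 genes, *Gclc*, *Gclm*, *Txnrd1*, *Srxn1* and *Slc7a11*, the lowest of the 6 means was that of *Pole4*-/- *Trp53*+/+ cells. The *Gpx4* row is less certain than the others, because the pseudogene *Gpx4-ps2* was counted at 27.6 CPM on average beside 97.9 CPM for *Gpx4*.

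**Figure D1:**
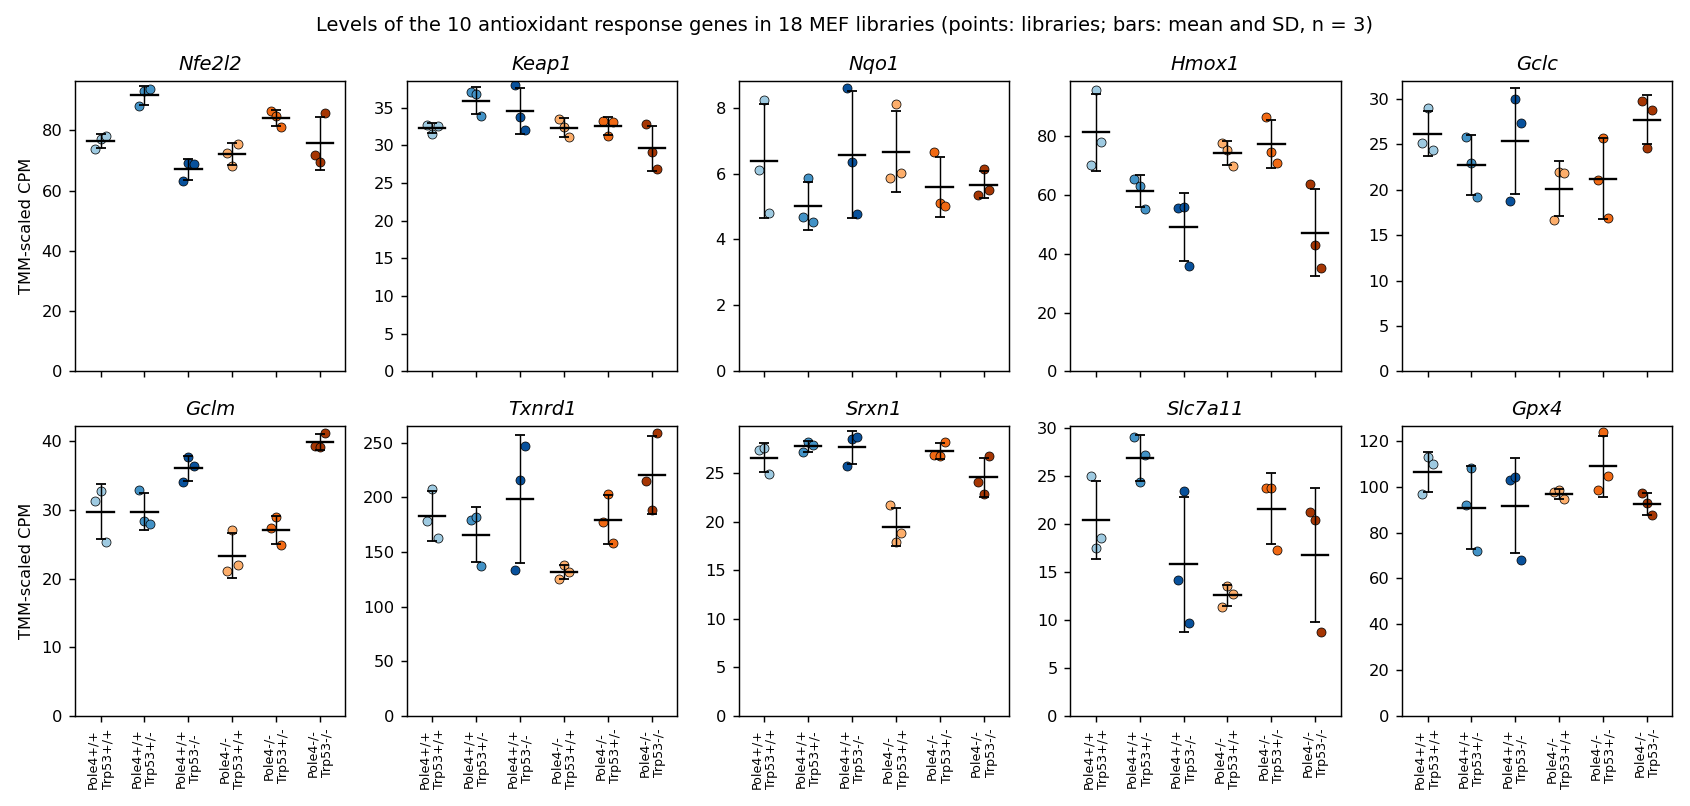
TMM-scaled CPM (y axis, from 0) of each of the 10 genes in the 6 genotypes (x axis), with a point for each library, a line for the mean and bars for the SD (n = 3). *Srxn1* is low in *Pole4*-/- *Trp53*+/+ cells, *Gclm* is high and *Hmox1* low in both *Trp53*-/- genotypes, and *Nfe2l2* is higher in the *Trp53*+/- genotypes than in the *Trp53*+/+ genotypes. The *Gclm* difference in *Pole4*+/+ cells and the *Nfe2l2* differences in both *Pole4* backgrounds were not called. The *Pole4*+/+ *Trp53*+/- libraries are all male and the *Pole4*+/+ *Trp53*+/+ libraries all female.

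The first comparison asked which of the genes differ when *Trp53* is lost in cells without *Pole4*. In *Pole4*-/- *Trp53*-/- MEFs, *Gclm*, *Txnrd1* and *Srxn1* were higher and *Hmox1* was lower than in *Pole4*-/- *Trp53*+/+ MEFs, and the other 6 genes did not pass the test. The changes were below 2-fold, from 1.26-fold for *Srxn1* to 1.71-fold for *Gclm*. The test was edgeR's quasi-likelihood F-test, with Benjamini-Hochberg adjustment over all 15710 genes and a threshold of 0.05. With 4 of 10 genes called, the set was close to the background of this comparison, in which 42.6% of all genes were called (21.8% higher and 20.8% lower). The median log2 fold change of the 10 genes was 0.20, beside -0.02 for all genes.

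*Gclm*, the modifier subunit of the enzyme that limits glutathione synthesis, read 39.3, 39.1 and 41.2 CPM in the 3 *Pole4*-/- *Trp53*-/- libraries and 21.1, 27.0 and 21.9 CPM in the 3 *Pole4*-/- *Trp53*+/+ libraries. The groups did not overlap, and the log2 fold change was 0.77 (SE 0.11, edgeR adjusted p = 0.000116). An annotated gene on the opposite strand, *Gm17494*, overlaps *Gclm* and averaged 8.90 CPM. The library kit is not stated to keep strand, so reads in the overlap cannot be told apart. *Gclc*, the catalytic subunit of the same enzyme, was at 24.7 to 29.8 CPM against 16.7 to 22.0 CPM. Its groups also did not overlap, but the log2 difference of 0.47 (SE 0.19) missed the threshold (edgeR adjusted p = 0.0520). *Gclc* passed it in 5 of 8 alternative settings (adjusted p from 0.0096 to 0.0913 over the 8) and in 1 of the 6 fits without a library.

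*Txnrd1*, the cytosolic reductase that keeps thioredoxin reduced, read 215, 188 and 259 CPM in the *Pole4*-/- *Trp53*-/- libraries and 125, 138 and 132 CPM in the *Pole4*-/- *Trp53*+/+ libraries. Every *Trp53*-/- library was above every *Trp53*+/+ library, with a log2 fold change of 0.75 (SE 0.19, edgeR adjusted p = 0.00523). *Srxn1*, sulfiredoxin, which restores peroxiredoxins that have been overoxidized, read 24.1, 22.9 and 26.8 CPM against 21.7, 17.9 and 18.9 CPM. It rose by 0.33 on the log2 scale (SE 0.09, edgeR adjusted p = 0.00827), again without overlap. That call was lost when libraries were scaled by their totals alone (log2 fold change 0.29, edgeR adjusted p = 0.326).

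*Hmox1*, heme oxygenase 1, which breaks heme down to biliverdin, iron and carbon monoxide, moved the other way. It read 63.7, 43.0 and 35.0 CPM in the *Pole4*-/- *Trp53*-/- libraries and 77.8, 75.5 and 69.9 CPM in the *Pole4*-/- *Trp53*+/+ libraries. All 3 *Trp53*-/- libraries were lower, but they spread widely among themselves (47.2 ± 14.8 CPM, SD, n = 3). The log2 fold change was -0.65 (SE 0.20, edgeR adjusted p = 0.0147). The size of the change rested on single libraries. It was -0.48 without replicate 3 of the *Pole4*-/- *Trp53*-/- libraries (edgeR adjusted p = 0.0808) and -0.93 without replicate 1, and the call was also lost without replicate 2 (edgeR adjusted p = 0.0563) and without replicate 1 of the *Pole4*-/- *Trp53*+/+ libraries (edgeR adjusted p = 0.0525). *Hmox1* is also strongly expressed by macrophages. Their 6 markers summed to 5.60 to 27.3 CPM in *Pole4*-/- *Trp53*-/- and to 8.13 to 19.5 CPM in *Pole4*-/- *Trp53*+/+ libraries, ranges that overlap, and their part in the result was not tested.

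The remaining 5 genes overlapped between these genotypes. The share of all genes without overlap was not counted in any comparison. A lack of overlap therefore describes the libraries and is not a test. *Nfe2l2* itself had a log2 difference of 0.07, which ran from -0.023 to 0.13 without 1 library. *Keap1* had one of -0.13, which was -0.21 without replicate 1 and -0.061 without replicate 3 of *Pole4*-/- *Trp53*-/- and -0.083 without replicate 1 of *Pole4*-/- *Trp53*+/+. *Nqo1*, the quinone reductase often used as the marker of NRF2 activity, was at 5.35 to 6.12 CPM against 5.88 to 8.10 CPM (log2 difference -0.23, SE 0.23, and -0.068 without replicate 2 of *Pole4*-/- *Trp53*+/+). *Slc7a11*, the cystine importer of the xc- antiporter, read 21.2, 20.4 and 8.69 CPM against 11.4, 13.5 and 12.7 CPM, so that 2 *Pole4*-/- *Trp53*-/- libraries were above and 1 was below all *Pole4*-/- *Trp53*+/+ libraries. Its log2 difference was 0.43 (SE 0.31, edgeR adjusted p = 0.295), and 0.74 without that library (edgeR adjusted p = 0.04997, just under the threshold), but 0.23 and 0.27 without replicate 1 and 2 of *Pole4*-/- *Trp53*-/- (edgeR adjusted p = 0.660 and 0.581). *Gpx4* had a log2 difference of -0.07 (-0.099 to -0.024 without 1 library).

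The same loss of *Trp53* was compared in cells that have *Pole4*. In *Pole4*+/+ MEFs, *Hmox1* was the only one of the 10 genes called, and it was again lower in *Trp53*-/- cells. In this comparison 4.6% of all genes were called (2.23% higher and 2.37% lower), and the median log2 difference of the 10 genes was 0.00, beside 0.03 over all genes. The 723 calls among all genes became 2700 without replicate 1 of *Trp53*-/- and 325 to 649 without any other library. *Hmox1* read 55.7, 55.8 and 35.9 CPM in the *Trp53*-/- libraries and 70.4, 95.7 and 77.9 CPM in the *Trp53*+/+ libraries. The groups did not overlap, and the log2 fold change was -0.72 (SE 0.20, edgeR adjusted p = 0.0482). This call was close to the threshold and was lost in 5 of 8 alternative settings (adjusted p up to 0.261) and without any 1 of 5 of the 6 libraries, all except replicate 1 of *Trp53*-/-, with adjusted p up to 0.163 and log2 fold changes from -0.82 to -0.55. Here the macrophage markers summed to 5.13 to 21.9 CPM in *Trp53*-/- and 4.02 to 46.3 CPM in *Trp53*+/+ libraries. The skeletal muscle markers were lower in the *Trp53*-/- libraries without overlap (23.6 to 33.7 against 74.4 to 82.2 CPM), and their part in the result was not tested.

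*Gclm* was at 34.1, 37.7 and 36.5 CPM in *Pole4*+/+ *Trp53*-/- libraries and at 31.3, 32.7 and 25.3 CPM in *Pole4*+/+ *Trp53*+/+ libraries. The groups did not overlap, but the log2 difference of 0.28 (SE 0.11) did not pass the test (edgeR adjusted p = 0.183), and it was 0.16 without replicate 3 of *Trp53*+/+. *Txnrd1* spread from 133 to 247 CPM in the *Pole4*+/+ *Trp53*-/- libraries, a range that took in all 3 *Trp53*+/+ libraries (163 to 208 CPM), and its log2 difference was 0.12 (SE 0.19). *Srxn1* differed by 0.05 and *Gclc* by -0.05. *Nfe2l2* was at 63.0 to 69.1 CPM against 73.8 to 78.2 CPM (log2 difference -0.19, SE 0.08, edgeR adjusted p = 0.204). *Slc7a11* ranged from 9.70 to 23.5 CPM against 17.5 to 25.0 CPM (log2 difference -0.36, SE 0.30). That value was -0.76 without replicate 2 of *Trp53*-/-, -0.14 without replicate 3 of *Trp53*-/- and -0.18 without replicate 1 of *Trp53*+/+, none of them called. For *Keap1*, *Nqo1* and *Gpx4* the log2 differences were 0.10, 0.06 and -0.21. For *Gpx4* the value was -0.33 and -0.32 without replicate 1 and 2 and -0.053 without replicate 3 of *Trp53*-/-, none of them called.

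Whether the effect of losing *Trp53* differed with *Pole4* was tested directly as an interaction in the same fit. None of the 10 genes passed (edgeR), with 0.331% of all genes called (0.178% above 0 and 0.153% below 0). An unadjusted p under 0.05 was found for 4 of the 10, beside 4453 of all 15710 genes. These 4 were *Gclm* (log2 difference of effects 0.50, SE 0.16, edgeR adjusted p = 0.0805), *Txnrd1* (0.63, SE 0.27, edgeR adjusted p = 0.141), *Srxn1* (0.28, SE 0.13, edgeR adjusted p = 0.164) and *Nfe2l2* (0.26, SE 0.11, edgeR adjusted p = 0.1499). Over the 8 alternatives *Srxn1* ran from 0.14 to 0.34 and *Nfe2l2* from 0.15 to 0.32. *Nfe2l2* was at 0.17 without replicate 3 of *Pole4*-/- *Trp53*-/-. The changes of *Gclm*, *Txnrd1* and *Srxn1* in *Pole4*-/- cells are therefore not shown to be particular to cells without *Pole4*. DESeq2 called 1 of the 10 in this test, *Gclm* (log2 difference of effects 0.51, DESeq2 adjusted p = 0.0311), where it called 12.4% of all genes. Without 1 library, edgeR called *Gclm* and *Txnrd1* without replicate 3 of *Pole4*+/+ *Trp53*-/- (adjusted p = 0.0451 and 0.0346) and *Gclm* without replicate 3 of *Pole4*+/+ *Trp53*+/+ (adjusted p = 0.0452). The 52 calls among all genes became 3242 and 408 without these libraries, 1973 and 170 without replicate 2 and 1 of *Pole4*+/+ *Trp53*-/-, and 0 to 11 without any other. For *Hmox1* the difference of the effects had an unadjusted edgeR p of 0.814.

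**Figure D2:**
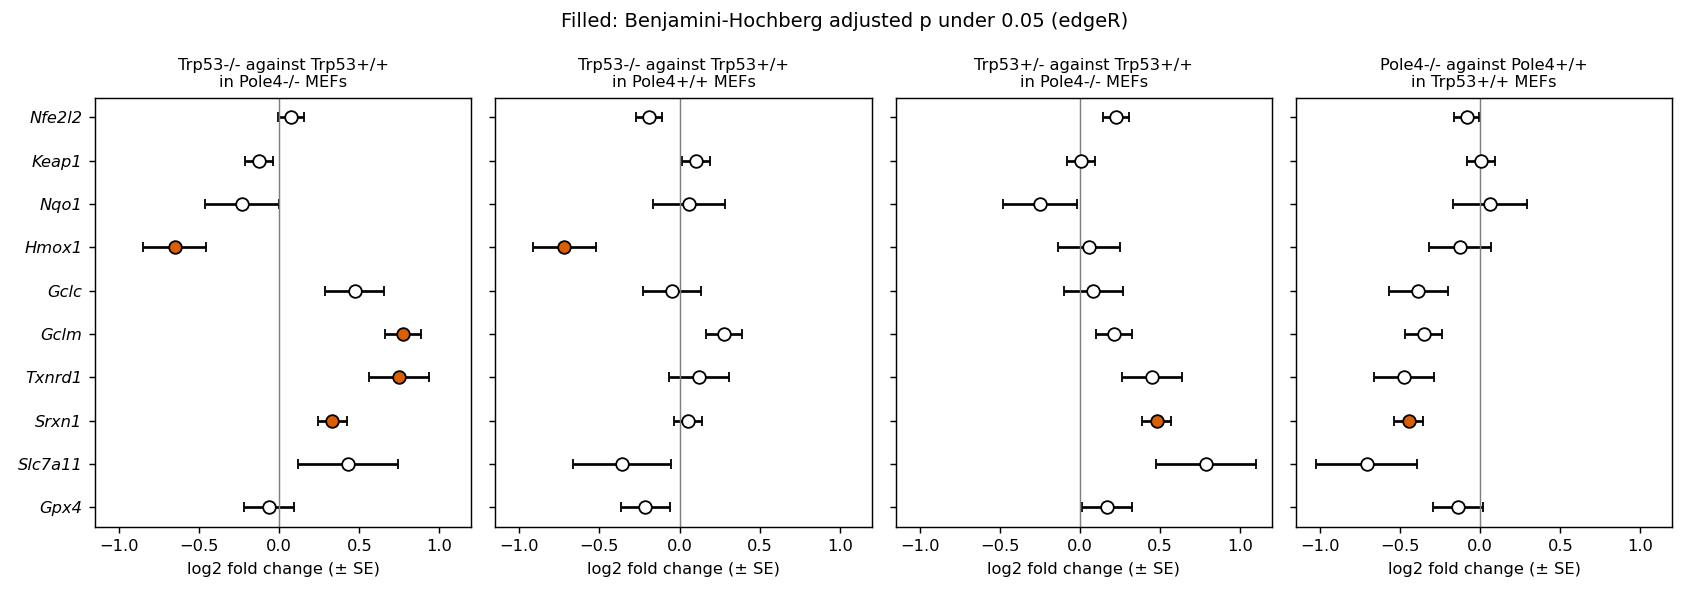
Log2 fold changes (x axis) of the 10 genes (rows) in 4 comparisons (panels), with bars of 1 SE, from edgeR over 18 libraries. Filled points passed an adjusted p under 0.05: 4 genes for *Trp53*-/- in *Pole4*-/- MEFs, *Hmox1* alone for *Trp53*-/- in *Pole4*+/+ MEFs, and *Srxn1* alone for *Trp53*+/- in *Pole4*-/- MEFs and for *Pole4*-/- in *Trp53*+/+ MEFs.

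The loss of *Pole4* was compared within each *Trp53* genotype. In *Trp53*+/+ MEFs, *Srxn1* was lower without *Pole4* and was the only one of the 10 genes called, while 3.98% of all genes were called (1.29% higher and 2.7% lower). It read 21.7, 17.9 and 18.9 CPM in *Pole4*-/- and 27.4, 27.6 and 24.9 CPM in *Pole4*+/+ libraries. These 3 *Pole4*-/- *Trp53*+/+ values were the lowest of all 18 libraries, the others running from 22.9 to 28.7 CPM. *Srxn1* fell by 0.45 on the log2 scale (SE 0.09, edgeR adjusted p = 0.0221). The call was lost with *Xist* as a covariate (log2 fold change -0.36, edgeR adjusted p = 0.125) and without any 1 of 4 of the 6 libraries (log2 fold change from -0.39 to -0.43, adjusted p from 0.0857 to 0.121): replicate 2 or 3 of *Pole4*-/-, or replicate 1 or 2 of *Pole4*+/+. The *Pole4*+/+ libraries of this comparison are all female and 2 of the 3 *Pole4*-/- libraries are male. The fibroblast marker sum was higher in *Pole4*-/- (24890 to 30960 CPM) than in *Pole4*+/+ libraries (16330 to 22000 CPM) and the epithelium sum lower (2.02 to 2.67 against 2.75 to 6.76 CPM), both without overlap, and their part was not tested. The number of all genes called in this comparison, 626, rested on single libraries: it was 140, 18 and 12 without replicate 1, 2 and 3 of *Pole4*-/- and 26, 8 and 799 without replicate 1, 2 and 3 of *Pole4*+/+.

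The thiol genes beside *Srxn1* had lower means in *Pole4*-/- *Trp53*+/+ cells too, but none of them passed the test. *Slc7a11* read 11.4, 13.5 and 12.7 CPM in *Pole4*-/- *Trp53*+/+ and 25.0, 17.5 and 18.6 CPM in *Pole4*+/+ *Trp53*+/+ libraries, without overlap (log2 difference -0.71, SE 0.31, edgeR adjusted p = 0.169). *Txnrd1* was at 125 to 138 CPM against 163 to 208 CPM, also without overlap (-0.47, SE 0.19, edgeR adjusted p = 0.132). *Gclm* differed by -0.35 (SE 0.11, edgeR adjusted p = 0.0827) and *Gclc* by -0.39 (SE 0.19, edgeR adjusted p = 0.199). Of the 8 alternatives, 3 called *Slc7a11* (adjusted p from 0.0129 to 0.272), 3 called *Txnrd1* (0.00558 to 0.323), 3 called *Gclm* (0.00651 to 0.179) and 2 called *Gclc* (0.0232 to 0.290), and *Gclm* was also called without replicate 3 of *Pole4*+/+ (edgeR adjusted p = 0.0305). Over the 10 genes, 8 log2 differences were below 0 and the median was -0.24, beside 0.01 for all genes. Ribosomal RNA took 7.11% to 42.5% of the counts in the *Pole4*-/- *Trp53*+/+ libraries and 5.81% to 11.3% in the *Pole4*+/+ *Trp53*+/+ libraries, and *Srxn1* was called also with that share as a covariate. *Nfe2l2*, *Hmox1*, *Gpx4*, *Nqo1* and *Keap1* differed by -0.09, -0.13, -0.14, 0.06 and 0.00, the last 2 with a sign that turned when libraries were scaled by their totals alone. Over the 8 alternatives *Nfe2l2* ran from -0.39 to -0.061, *Hmox1* from -0.415 to -0.050 and *Gpx4* from -0.44 to -0.083, none of them called.

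In *Trp53*+/- and in *Trp53*-/- MEFs, none of the 10 genes differed between *Pole4*-/- and *Pole4*+/+ cells by the edgeR test, and 0.00637% of all genes were called in each of these comparisons. At an unadjusted p under 0.05 there were 866 of all 15710 genes in *Trp53*+/- cells and 1636 in *Trp53*-/- cells. Of the 10 genes there were 0 in *Trp53*+/- cells and 2 in *Trp53*-/- cells, *Keap1* (log2 difference -0.23) and *Nfe2l2* (0.18). Neither size was stable. *Keap1* ran from -0.65 (library totals alone) to -0.15 (voom) over the 8 alternatives and was -0.15 without replicate 1 of *Pole4*+/+, and *Nfe2l2* ran from -0.24 (library totals alone, where its direction turned) to 0.19 and was 0.080 without replicate 3 of *Pole4*-/-. DESeq2 called 0 of the 10 in both.

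The loss of 1 copy of *Trp53* was compared in each *Pole4* background. In *Pole4*-/- cells, *Srxn1* was higher in *Trp53*+/- MEFs, with 26.8, 26.8 and 28.2 CPM against 21.7, 17.9 and 18.9 CPM in *Trp53*+/+ libraries. The groups were well apart, with a log2 fold change of 0.48 (SE 0.09, edgeR adjusted p = 0.0143). It was the only one of the 10 genes called, with 5.12% of all genes called (2.96% higher and 2.16% lower). The call was lost without replicate 2 of *Trp53*+/- (edgeR adjusted p = 0.0757), or without replicate 2 (edgeR adjusted p = 0.0858) or 3 (edgeR adjusted p = 0.0779) of *Trp53*+/+, at log2 fold changes of 0.42 to 0.50. The 805 calls among all genes fell to 17, 41 and 33 without these 3 libraries and to 241 without replicate 1 of *Trp53*+/+, and the other 2 fits gave 526 and 553. The epithelium markers were higher in the *Trp53*+/- libraries (3.90 to 6.47 against 2.02 to 2.67 CPM), and their part was not tested. The *Pole4*-/- *Trp53*+/+ libraries are the reference here and in the *Trp53*-/- comparison, and are the *Pole4*-/- arm of the comparison in *Trp53*+/+ cells, so the 3 results for *Srxn1* are not independent of each other.

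*Slc7a11*, which TRP53 has been described to repress, read 23.8, 23.7 and 17.3 CPM in *Pole4*-/- *Trp53*+/- and 11.4, 13.5 and 12.7 CPM in *Pole4*-/- *Trp53*+/+ libraries. The groups did not overlap, but the log2 difference of 0.79 (SE 0.31) did not pass the test (edgeR adjusted p = 0.131). With both copies of *Trp53* lost, the log2 difference of *Slc7a11* was 0.43 in *Pole4*-/- and -0.36 in *Pole4*+/+ cells, neither of them called. *Txnrd1* was at 159 to 203 CPM against 125 to 138 CPM (log2 difference 0.45, SE 0.19, edgeR adjusted p = 0.151). *Nfe2l2* was at 81.2 to 86.6 CPM against 68.2 to 75.6 CPM (0.22, SE 0.08, edgeR adjusted p = 0.101). Of the 8 alternatives, 3 called *Slc7a11* (adjusted p from 0.0117 to 0.217), 3 called *Txnrd1* (0.0174 to 0.242) and 1 called *Nfe2l2* (0.0175 to 0.183). The median log2 difference of the 10 genes was 0.19, beside -0.01 over all genes.

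In *Pole4*+/+ cells none of the 10 genes was called between *Trp53*+/- and *Trp53*+/+ MEFs (edgeR), where 0.904% of all genes were called (0.496% higher and 0.407% lower), 142 in number and 17 to 101 without any 1 library. *Nfe2l2* alone of the 10 had an unadjusted p under 0.05, beside 1610 of all 15710 genes. It was at 88.0, 93.0 and 93.8 CPM against 73.8, 77.2 and 78.2 CPM (log2 difference 0.26, SE 0.08, edgeR adjusted p = 0.173), and DESeq2 called 0 of the 10. Only voom called it (adjusted p from 0.0171 to 0.9999 over the 8 alternatives). The skeletal muscle markers were lower (35.7 to 53.4 against 74.4 to 82.2 CPM) and the neuron markers higher (83.5 to 114 against 57.9 to 76.3 CPM) in the *Trp53*+/- libraries, and their part was not tested. Sex and genotype cannot be told apart here, since the *Trp53*+/- libraries are all male and the *Trp53*+/+ libraries all female. Over both *Pole4* backgrounds, *Nfe2l2* ran from 81.2 to 93.8 CPM (median 87.3) in the 6 *Trp53*+/- libraries and from 68.2 to 78.2 CPM (median 74.7) in the 6 *Trp53*+/+ libraries. The 6 *Trp53*-/- libraries overlapped with both, from 63.0 to 85.8 CPM (median 69.2). The difference of the *Trp53*+/- effect between the *Pole4* backgrounds, a test added after the data had been seen, called none of the 10 genes and 0 genes in all by edgeR. Its unadjusted p was under 0.05 for 2 of the 10, *Srxn1* (log2 difference of effects 0.42) and *Txnrd1* (0.59). The difference of the *Pole4* effect between *Trp53*-/- and *Trp53*+/- cells, also added after the data had been seen, called 0 genes in all by edgeR, with *Nfe2l2* (log2 difference of effects 0.30) as the 1 gene of the 10 under an unadjusted 0.05.

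Over the 18 libraries, the genes of glutathione synthesis and thioredoxin reduction varied alike. Pearson's r of log2 CPM was 0.83 for *Gclc* with *Txnrd1*, 0.76 for *Gclm* with *Txnrd1* and 0.72 for *Gclc* with *Gclm*. *Hmox1* was most like *Gpx4* (0.65) and least like *Gclm* (-0.64). *Slc7a11* was at 0.03 with *Gclm* and -0.03 with *Txnrd1*, and *Nfe2l2* ran from -0.52 with *Nqo1* to 0.42 with *Slc7a11* over the other 9 genes. These values describe the 18 libraries, which share genotypes and differ in depth and composition.

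Among all genes tested, those nearest to *Txnrd1* were *Eif3b* (r = 0.98), *Idh3a* (0.97) and *Cs* (0.97), a translation initiation factor subunit and enzymes of the citric acid cycle. *Gclm* was nearest to *Gas2l3*, *Aco1* (both r = 0.96) and *Aspm* (0.95), of which *Aspm* is a mitotic spindle gene. *Hmox1* was nearest to *Gdf15* (0.95), a stress-induced cytokine of the TGF-beta family, *Taok3* (0.94) and *Vps26c* (0.93). *Slc7a11* was nearest to *Gars* (0.92), *Ibtk* (0.92) and *Aars* (0.91), the first and last being aminoacyl-tRNA synthetases. *Srxn1* was nearest to *Twist2* (0.89), *Dap3* (0.88) and *Fkbp5* (0.88), and *Gclc* to *Dhx37* (0.91), *Taf4b* (0.90) and *Nras* (0.90). *Gpx4* was nearest to *Immp1l* (0.88), *Commd6* (0.85) and *Cox4i1* (0.84), a subunit of mitochondrial cytochrome c oxidase. For *Nfe2l2* these were *Sh3bgrl2* (0.89), *Qars* (0.79) and *Npepps* (0.77), for *Keap1* *Cdc42ep5* (0.92), *Flt3l* (0.89) and *Ip6k1* (0.86), and for *Nqo1* *Hip1* (0.85), *Ttll7* (0.81) and *Gm10125* (0.77).

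**Figure D3:**
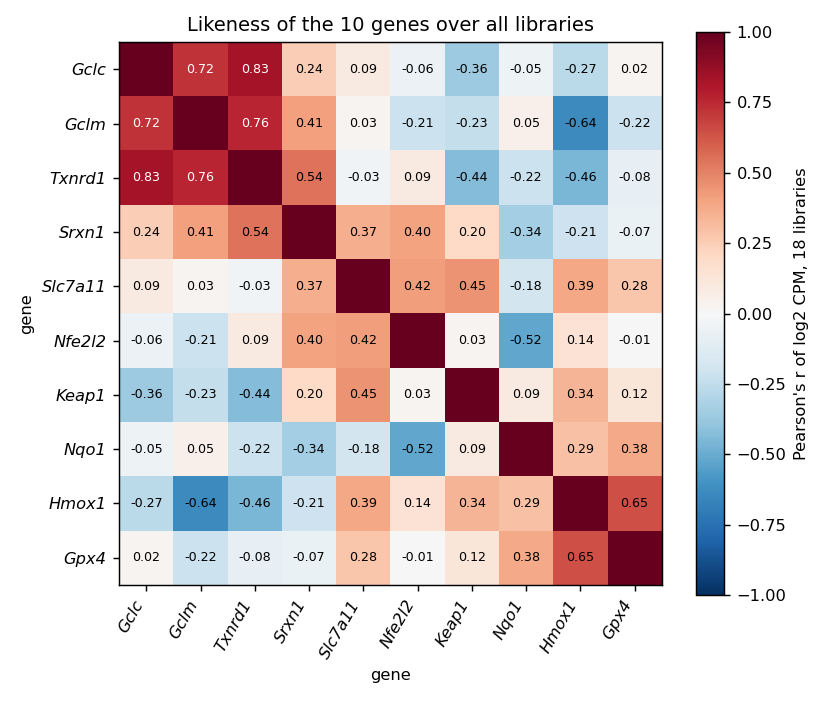
Pearson's r of log2 CPM over 18 libraries for each pair of the 10 genes (both axes), in color and digits. *Gclc*, *Gclm* and *Txnrd1* form a block at 0.72 to 0.83, and *Hmox1* is at -0.64 with *Gclm*.

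The rest of the pathway was followed in 9 lists of other genes, of which 120 genes were tested. When *Trp53* was lost in *Pole4*-/- MEFs, 33 of the 120 were higher and 37 lower, 58.3% in all, beside the 42.6% of all genes. The directions differed by list. Of 21 genes of glutathione synthesis and use, 1 was higher and 9 were lower, with a median log2 difference of -0.41. The 1 that rose was *Gsr*, glutathione reductase (59.0 against 26.0 CPM, log2 fold change 1.18), and those that fell included the extracellular peroxidase *Gpx3* (-2.11) and the transferases *Gstm2* (-2.10) and *Mgst3* (-0.99). Of 10 genes of NADPH supply, 6 were higher and 1 was lower. Those that rose were *Mthfd2* (0.59), *Idh2* (0.44), the NAD kinase *Nadk* (0.38), and *Taldo1* (0.32), *Pgd* (0.29) and *Tkt* (0.27) of the pentose phosphate pathway. *Pgls* (-0.73), of that pathway too, was the 1 that fell.

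Of 14 genes of the thioredoxin and peroxiredoxin system, 6 were higher and 5 lower in the same comparison, in which 21.8% of all genes were called higher and 20.8% lower. *Txn1*, thioredoxin, rose from 104 to 188 CPM (log2 fold change 0.85), whereas its inhibitor *Txnip* (-0.97) and the stress-induced *Sesn2* (-1.58) fell. The other genes that fell were *Msrb1* (-0.84), *Prdx5* (-0.57) and *Prdx2* (-0.24). Those that rose beside *Txn1* were *Prdx6* (0.79), *Txnrd3* (0.73), *Prdx4* (0.43), *Prdx3* (0.32) and *Txn2* (0.30). Of 16 genes of cystine uptake and ferroptosis, 8 were higher and 4 lower. *Acsl4*, which activates polyunsaturated fatty acids, rose (1.16), as did *Slc3a2* (0.32), the heavy chain with which *Slc7a11* forms the cystine antiporter. *Gch1* (2.13), *Gls2* (1.07), *Dhodh* (0.93), *Slc1a5* (0.56), *Slc7a1* (0.44) and *Vkorc1l1* (0.36) rose as well. The 4 that fell were *Alox5* (-3.38), *Aifm2* (-0.85), *Pla2g6* (-0.70) and *Sat1* (-0.55). Of 18 genes of detoxification and efflux, 4 were higher and 9 lower. *Esd* (0.63), *Abcc4* (0.56), *Akr1b3* (0.55) and *Ugdh* (0.34) rose. The microsomal epoxide hydrolase *Ephx1* fell from 150 to 6.12 CPM (-4.60), and *Abcc5* (-1.12), an efflux transporter, *Htatip2* (-1.05) and the carbonyl reductase *Cbr1* (-0.75) fell too. Of 12 genes of iron and heme handling, 1 was higher, the transferrin receptor *Tfrc* (1.72), and 3 were lower, the iron exporter *Slc40a1* (-1.97), the heme transporter *Slc48a1* (-0.997) and *Alas1* (-0.46), which starts heme synthesis. The regulators and partners of NRF2, with 3 of 14 higher and 3 lower, were near the shares of all genes called higher and lower. *Bach2* (2.28), a repressor of the BACH family, *Palb2* (1.00) and *Cul3* (0.59), the ligase scaffold that KEAP1 uses, rose. *Nfe2l1* (-0.55), the related factor NRF1, *Btrc* (-0.49) and *Sqstm1* (-0.46), the autophagy receptor p62, fell. Of 11 genes of selenoprotein synthesis 3 were higher, *Sephs1* (0.71), *Sephs2* (0.58) and *Eefsec* (0.44), and 2 lower, *Selenop* (-1.45) and *Selenon* (-0.65). Of the 4 superoxide and hydrogen peroxide enzymes *Sod2* was higher (0.46) and *Sod3* lower (-2.97). The lower fibroblast and muscle and higher neuron and epithelium marker sums of *Pole4*-/- *Trp53*-/- libraries moved with these lists, and their part was not tested.

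**Figure D4:**
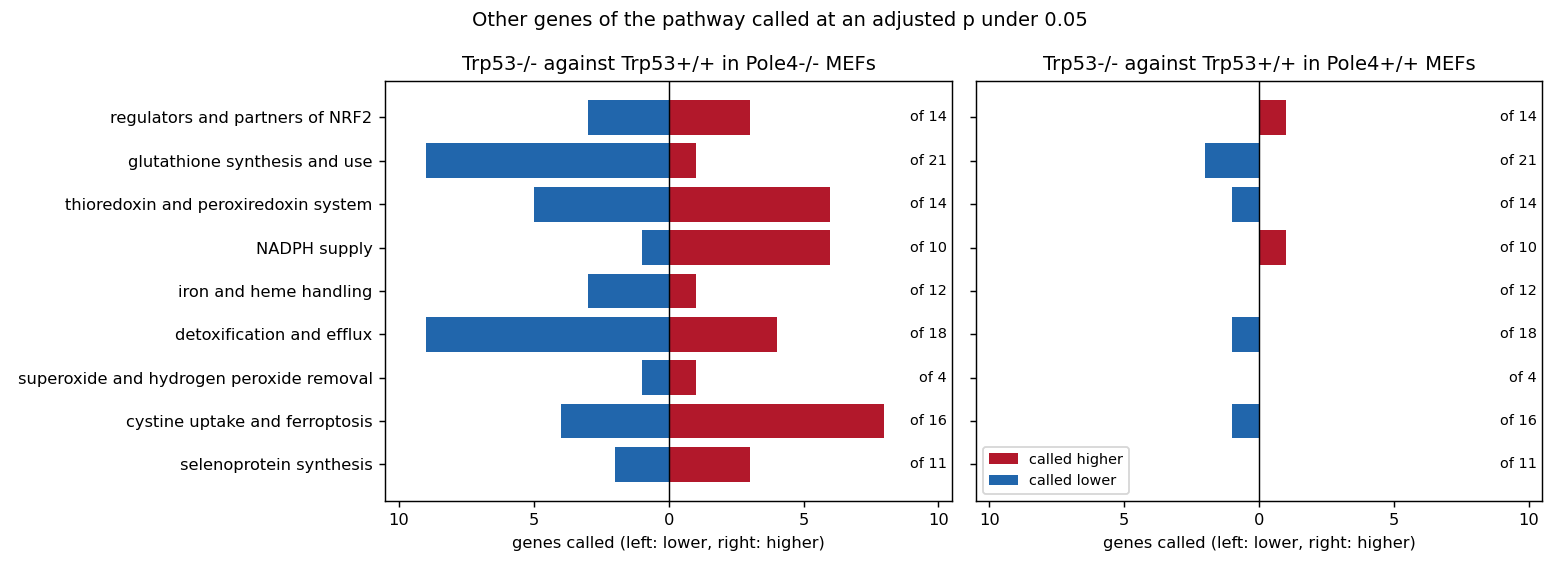
Number of genes called higher (right, red) or lower (left, blue) in each of 9 pathway lists (rows, with the number tested), for *Trp53*-/- against *Trp53*+/+ in *Pole4*-/- (left panel) and *Pole4*+/+ MEFs (right panel). Calls number 70 in the left panel and 7 in the right, and glutathione synthesis and use leans to lower (9 of 21) in the left panel.

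In *Pole4*+/+ cells, loss of *Trp53* called 7 of the 120 genes (5.83%, beside 4.6% of all genes), 2 higher and 5 lower. *Bach2* (14.8 against 5.98 CPM) and *Idh2* (92.7 against 70.1 CPM) rose. *Ephx1* (-2.87), *Sesn2* (-1.06), *Gss*, glutathione synthetase (-0.79), *Sat1* (-0.57) and *Gpx8* (-0.30) fell. Between *Pole4*-/- and *Pole4*+/+ in *Trp53*+/+ cells, 8 of the 120 were called (6.67%, beside 3.98%), all of them lower. With DESeq2 it was 4 higher and 17 lower, with only the libraries compared 17 and 28, with voom 26 and 31, with the ribosomal RNA covariate 6 and 15, with library totals alone 0 and 31, with the replicate block 1 and 11, without the filter 0 and 10, and with the *Xist* covariate 0 in either direction. Of the 8, 4 belong to the thioredoxin and peroxiredoxin system, the list of the enzymes that *Txnrd1* and *Srxn1* serve: *Txn1* (104 against 181 CPM, log2 fold change -0.80), *Txnrd3* (-0.68), *Prdx4* (-0.44) and *Prdx3* (-0.37). The other 4 were *Taldo1* (-0.36) and *Pgd* (-0.35) of the pentose phosphate pathway, *Dhodh* (-0.66) and *Acsl4* (-0.55). Between *Trp53*+/- and *Trp53*+/+ in *Pole4*-/- cells 5 of the 120 were higher and 1 lower (5%, beside 5.12%), *Acsl4* (0.64), *Slc1a5* (0.64), *Taldo1* (0.35), *Pgd* (0.35) and *Prdx3* (0.35) against *Alox5* (-2.80), in a comparison that shares the *Pole4*-/- *Trp53*+/+ libraries with the one before. In the interaction, 2 of the 120 were called (1.67%, beside 0.331%), *Txnrd3* (0.89) and *Pgls* (-0.70). In *Pole4*+/+ cells *Trp53*+/- called 1 of the 120 (0.833%, beside 0.904%), *Gpx8* (-0.41). The loss of *Pole4* called 0 of them in *Trp53*+/- and in *Trp53*-/- cells by edgeR, beside 0.00637% of all genes in each.

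The list counts outside *Trp53*-/- in *Pole4*-/- cells rested on single libraries and on the setting. So did the number of all genes called, whose ranges are given in the last section. Over the 8 alternatives that keep every library, the list genes called ran from 0 to 7 higher and 1 to 14 lower for *Trp53*-/- in *Pole4*+/+ cells, from 1 to 24 higher and 0 to 16 lower for *Trp53*+/- in *Pole4*-/- cells, from 0 to 2 and 0 to 5 for *Trp53*+/- in *Pole4*+/+ cells, and from 0 to 10 and 0 to 8 for the interaction. For *Trp53*-/- in *Pole4*-/- cells they ran from 16 to 36 higher and 25 to 42 lower. For *Pole4*-/- in *Trp53*+/+ cells the 8 list genes called became 0 without replicate 2 or 3 of *Pole4*-/- or replicate 1 or 2 of *Pole4*+/+, 1 without replicate 1 of *Pole4*-/- and 9 without replicate 3 of *Pole4*+/+. For *Trp53*+/- in *Pole4*-/- cells the 6 became 0 without replicate 2 of *Trp53*+/- or replicate 2 or 3 of *Trp53*+/+, 2 without replicate 1 of either genotype and 7 without replicate 3 of *Trp53*+/-. For *Trp53*-/- in *Pole4*+/+ cells the 2 higher and 5 lower became 6 and 16 without replicate 1 of *Trp53*-/-, 0 and 4 without replicate 2 and 1 and 3 without replicate 3 of it, and 0 and 3 without any 1 *Trp53*+/+ library. The 2 called in the interaction became 37 without replicate 3, 25 without replicate 2 and 3 without replicate 1 of *Pole4*+/+ *Trp53*-/-, 5 without replicate 3 of *Pole4*+/+ *Trp53*+/+ and 0 without any other. In the fits named, in this order, 20.1%, 12.3%, 1.07% and 2.52% of all genes were called. The 1 of *Trp53*+/- in *Pole4*+/+ cells became 2 without replicate 2 of *Trp53*+/- and 0 without any other. For *Trp53*-/- in *Pole4*-/- cells they ran from 24 to 28 higher and 32 to 35 lower.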

How the data were processed

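RNA-seq of 18 MEF libraries was analysed from the deposited table. Per the labels and methods, the authors aligned 100 bp paired-end reads to GRCm38 with STAR 2.5.2 and estimated counts per gene with RSEM 1.3.0, and the values deposited are these expected counts (6.14% not whole), rounded here. GENCODE annotation of the same build gave symbols for 51633 of 51912 identifiers, and the exon lengths. Apart from the gene identifiers, the table held only these counts.

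Genes were filtered with filterByExpr and fitted with edgeR 4.0.16 under R 4.3.3 (TMM scaling, 1 mean per genotype over 18 libraries with 12 residual degrees of freedom, robust quasi-likelihood F-tests). A gene was called at a Benjamini-Hochberg adjusted p under 0.05 over all genes tested. The SE is the log2 fold change divided by the square root of F. Log2 CPM used a prior count of 2. Intervals between libraries cover library spread, and depth limits low genes such as *Nqo1*.

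Genotypes came from the sample labels. No pair of libraries of a genotype agreed within sampling noise (chi-square per degree of freedom of at least 20.1). Replicate numbers are not said to link cultures. The correlation of same-numbered libraries' deviations was over 0.1 for all 3 numbers, the criterion used for pairing, in 1 of 7 comparisons, *Pole4*-/- against *Pole4*+/+ in *Trp53*+/- cells (r = 0.261, 0.497 and 0.292), where the pairing is read from the data.

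The 10 genes and the lists were chosen with earlier results of these data known. Named by rule were the 10 genes, the genotype and sex checks, up to 4 called genes per list and comparison with the largest change at a mean of 5 CPM or more, and the 3 genes most like each of the 10. List genes named outside this rule (*Btrc*, *Sqstm1*, *Prdx2*, *Prdx5*, *Slc3a2*, *Alox5*, *Sat1* in *Pole4*-/- cells, *Esd*, *Abcc4*, *Akr1b3*, *Ugdh*, *Slc40a1* and *Eefsec*) were chosen after their values were seen. So were *Prdx3*, *Prdx4*, *Prdx6*, *Txn2*, *Txnrd3*, *Taldo1*, *Pgd*, *Tkt*, *Gch1*, *Gls2*, *Slc1a5*, *Slc7a1* and *Vkorc1l1* for *Trp53*-/- in *Pole4*-/- cells.

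The settings varied were the tool (DESeq2 1.42.0), the scaling (library totals alone), no filter on low counts, only the libraries compared, replicate block, log2 *Xist* as a covariate, voom with quality weights (limma 3.58.1) and leaving out each library. The share of ribosomal RNA as a covariate, 2 more interactions and the counts of list genes in each setting were added after seeing the data.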

Additional observations from a re-analysis of the deposited data

How the results depend on the processing

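The increases of *Gclm* and *Txnrd1* after loss of *Trp53* in *Pole4*-/- cells were called under all 8 alternatives and without any 1 of the 6 libraries, and 3 or 4 of the 10 genes were called without 1 library. That count was 3 with library totals alone (23.7% of all genes called), 4 with the *Xist* (39.1%) or ribosomal RNA (42%) covariate and 5 in the other 5 settings (19.3% to 51.7% of all genes called), *Gclc* being the gene added. For *Pole4*-/- in *Trp53*+/- and in *Trp53*-/- cells it was 0 throughout. For *Trp53*-/- in *Pole4*+/+ cells the count was 0 with library totals alone, no filter, only the libraries compared, the *Xist* covariate or the ribosomal RNA covariate. For *Trp53*+/- in *Pole4*-/- cells it was 3 with library totals alone (13.8% of all genes called), 3 with only the libraries compared (18.2%) and 4 with voom (24.6%), and for *Trp53*+/- in *Pole4*+/+ cells 1 with voom (7.11%). For *Pole4*-/- in *Trp53*+/+ cells it was 2 with DESeq2 (11.8%), 5 with library totals alone (14.3%), 3 with only the libraries compared (24.1%), 0 with the *Xist* covariate (0.07%) and 5 with voom (33.3%), and for the interaction 1 with DESeq2 (12.4%). Without 1 library the counts ran from 0 to 1, 0 to 1, 0 to 2 and 0 to 2 for *Trp53*-/- in *Pole4*+/+, *Trp53*+/- in *Pole4*-/-, *Pole4*-/- in *Trp53*+/+ cells and the interaction. The cause was not tested.

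Some differences, none of them called, changed sign. For *Trp53*-/- in *Pole4*+/+ cells, *Gclc* was at 0.023 with library totals alone, 0.15 with voom and 0.018 with the ribosomal RNA covariate, and *Nqo1* at -0.0044 with voom. For *Pole4*-/- in *Trp53*+/+ cells, *Keap1* was at -0.29 with library totals alone and -0.065 without the filter, and *Nqo1* at -0.22, -0.0086 and, with *Xist*, -0.10. *Nfe2l2* in *Trp53*-/- cells was at -0.24 between *Pole4* genotypes with library totals alone. Without 1 library, *Nfe2l2* ran from -0.023 to 0.13 for *Trp53*-/- in *Pole4*-/- cells. For *Trp53*-/- in *Pole4*+/+ cells, *Keap1* ran from -0.0022 to 0.14, *Nqo1* from -0.21 to 0.27, *Gclc* from -0.20 to 0.11, *Txnrd1* from -0.083 to 0.31 and *Srxn1* from -0.0051 to 0.076. For *Pole4*-/- in *Trp53*+/+ cells, *Keap1* ran from -0.056 to 0.028, *Nqo1* from -0.11 to 0.28 and *Hmox1* from -0.22 to 0.0018.

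Scaling by library totals alone moved the median log2 difference of all genes to 0.29 for *Trp53*+/- in *Pole4*-/- cells, to -0.28 and -0.44 for *Pole4*-/- in *Trp53*+/+ and *Trp53*-/- cells, to 0.12 for *Trp53*-/- in *Pole4*+/+ cells and to -0.15 for the interaction, and 97% and 2.54% of the calls in the first and second of these were then higher. The number of all genes called ran over the 8 alternatives that keep every library from 3722 to 8126 for *Trp53*-/- in *Pole4*-/- cells (6699 as reported), from 90 to 2946 in *Pole4*+/+ cells (723), from 162 to 3862 for *Trp53*+/- in *Pole4*-/- cells (805), from 39 to 1117 in *Pole4*+/+ cells (142), from 11 to 5229 for *Pole4*-/- in *Trp53*+/+ cells (626) and from 0 to 1755 for the interaction (52). Without 1 library the ranges were 5108 to 6007, 325 to 2700, 17 to 553, 17 to 101, 8 to 799 and 0 to 3242 in the same order. With the replicate number as a block, 5, 1, 1 and 1 of the 10 genes were called in the 4 comparisons with calls (beside 43.9%, 5.06%, 6.26% and 5.7% of all genes) and 0 in the others, the paired comparison included, and the interaction had 548 calls among all genes.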
